A study of Mus musculus with 12 samples.

Results

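Genes of mouse chromosome 8 were followed through 6 cultured lines of the male germline. The members are 52 genes chosen by name, all placed on chromosome 8 by RefSeq on build GRCm38.p6, out of 26219 genes measured. The 49 genes whose mean reached 5 RPM (reads scaled to one total per library) over the 12 libraries were kept, and these 49 are the members below. Irf2 at a mean of 4.09 RPM, Chd9 at 1.84 RPM and Rbl2 at 0.76 RPM did not reach that level. The members were chosen with the expression of GSCLC_3 known, so the members' differences between a GSCLC line and the GSC lines are given as a description: their counts past a test threshold are printed with no p-value, and adjusted p-values for such differences are given only for partner and S phase genes on other chromosomes.

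The lines were all of genotype AcrAct_EGFP reporter on a mixed C57BL/6 x 129/SvJcl background, and each gave 2 RNA libraries from separate cultures. GSC_1 and GSC_2 are germline stem cells, which are spermatogonial stem cells that renew in culture, and each came from the testes of a different animal at postnatal day 7. The lines named GSCLC, numbered 1 to 4, are stem cell-like counterparts of the GSC lines that grew out of reconstituted testes. For GSCLC_1 and GSCLC_4 these testes were held at 34°C for 3 weeks (condition 1), and for GSCLC_2 and GSCLC_3 they were held at 37°C for 2 weeks followed by 34°C for 1 week (condition 2). All lines grew in one StemPro-34 medium with GDNF, bFGF, LIF and EGF, so each line is a separate culture and a condition is represented by only 2 of them. Libraries were made by SC3-seq, which reads the 3′ ends of mRNA, from 1 ng of total RNA.

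In a diploid cell most genes are transcribed from both homologues, and an additional copy of a chromosome tends to raise the mRNA of its genes in proportion to copy number. Some transcripts depart from that proportion, and proteins that work in fixed complexes with partners from other chromosomes can be produced in excess of them. A gain of chromosome 8 is a known change of mouse stem cells in long culture. DNA copy number was not measured here, so the values below are RNA levels only.

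The label of the cells was checked first. The germ cell markers Dazl, at 1200 to 1559 RPM, and Ddx4, at 362 to 604 RPM, were present in all 12 libraries, and the summed level of 8 germ cell markers was 3145 to 3603 RPM in GSC, 3324 to 3715 RPM in GSCLC_3 and 3042 to 3623 RPM in the other GSCLC libraries. The 4 Sertoli cell markers summed to 29.3 to 135 RPM in GSC, 15.6 to 28.6 RPM in GSCLC_3 and 19.7 to 38.9 RPM in the other GSCLC libraries, with Amh at 0 throughout. The 4 Leydig cell markers summed to 11.7 to 109 RPM, 5.94 to 7.01 RPM and 3.99 to 8.44 RPM in the same order. The 6 fibroblast markers summed to 106 to 332 RPM, 98.4 to 146 RPM and 66.7 to 226 RPM, and those of macrophages and endothelium to 2.55 to 6.46 RPM, 1.89 to 5.65 RPM and 1.14 to 4.62 RPM. Sertoli and Leydig sums were lower in GSCLC_3 than in all GSC libraries, as Leydig sums were in every GSCLC library, and their part in the members' values was not tested. Fewer cells of a type and less RNA per cell cannot be told apart in such bulk libraries. Read depth, implied by the even steps between low RPM values, was 3031706 to 4644183 reads, so that 5 RPM stands for 15 to 23 reads.

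Promoter sequence is shown for 4 members, Mcm5 and Tfdp1 because they held E2F-type octamers and Got2 and Csnk2a2 because they had the largest shifts in GSCLC_3. None of the 4 is a member with a shift near or below 0. Each line holds the bases of the RefSeq promoter entry that lie before the RefSeq span of the gene on GRCm38.p6 (209, 224, 250 and 202 bases), written 5′ to 3′ on the strand of the gene, with capitals marking E2F-type octamers: chr8:75109259-75109467 on the plus strand, chr8:13338501-13338724 on the plus strand, chr8:95888402-95888651 on the minus strand and chr8:95488869-95489070 on the minus strand.
Mcm5: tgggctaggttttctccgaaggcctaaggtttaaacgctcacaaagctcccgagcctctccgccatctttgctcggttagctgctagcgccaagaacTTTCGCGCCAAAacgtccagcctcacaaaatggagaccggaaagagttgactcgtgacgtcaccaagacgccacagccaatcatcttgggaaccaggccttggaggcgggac
Tfdp1: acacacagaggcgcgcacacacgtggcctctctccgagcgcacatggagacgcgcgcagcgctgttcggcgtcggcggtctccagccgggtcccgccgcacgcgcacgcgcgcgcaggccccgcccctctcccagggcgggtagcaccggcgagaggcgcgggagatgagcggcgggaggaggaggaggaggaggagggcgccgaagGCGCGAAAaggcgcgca
Got2: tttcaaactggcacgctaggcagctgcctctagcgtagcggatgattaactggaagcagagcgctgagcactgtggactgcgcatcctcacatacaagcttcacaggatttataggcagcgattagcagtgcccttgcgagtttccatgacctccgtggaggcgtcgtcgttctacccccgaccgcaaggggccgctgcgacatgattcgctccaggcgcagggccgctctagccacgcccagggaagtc
Csnk2a2: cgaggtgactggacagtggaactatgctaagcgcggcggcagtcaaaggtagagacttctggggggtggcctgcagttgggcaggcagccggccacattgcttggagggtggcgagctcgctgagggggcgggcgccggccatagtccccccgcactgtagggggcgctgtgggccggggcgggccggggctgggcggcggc

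The octamers searched, on both strands, were TTTCCCGC, TTTGGCGC, TTTCGCGC and TTTGCCGC, which are forms of the site bound by E2F and DP proteins. The Mcm5 sequence held 2 of them in opposite directions that overlap each other, the Tfdp1 sequence held 1, and those of Got2 and Csnk2a2 held none. RefSeq promoter entries of 300 bases (250 before and 50 after the entry's start) matched 33 of the 49 members, and 2 of these 33 (6.06%) held an octamer. Among all 27025 genes with an entry the share was 2.6%. A match describes these letters and not binding.

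As a group, the members were higher in GSCLC_3 than in both GSC lines, and the other GSCLC lines had no such shift. The summed level of the 49 members was 8788 RPM in GSCLC_3 and 6510 RPM in the GSC mean, a ratio of 1.35, with 1.368 and 1.332 in its 2 libraries. In GSCLC_1, GSCLC_2 and GSCLC_4 the ratio was 0.975, 0.946 and 0.986, inside or close under the range of the single GSC libraries of 0.965 to 1.06. Chromosome 8 as a whole held 6.62% and 6.5% of all RPM in the GSCLC_3 libraries. It held 4.91% to 4.99% in the GSC libraries and 4.7% to 4.78% in the other GSCLC libraries, all of them below GSC. The ratio was of similar size in both cultures of the line.

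On the log2(RPM + 1) scale, where each shift is the mean of a line minus the mean of both GSC lines, the median member stood 0.45 higher in GSCLC_3, with 0.53 and 0.40 in its libraries. The interquartile range ran from 0.27 to 0.57, and the members reached from -0.28 to 1.04. The medians were 0.03 in GSCLC_1, 0.01 in GSCLC_2 and 0.00 in GSCLC_4. All 4 shifts share the same GSC libraries. In GSCLC_3, 47 of 49 members were above 0, against 25 in each other line. The 581 other tested genes of chromosome 8 had a median of 0.40 in GSCLC_3, and the 10780 tested genes of other chromosomes a median of -0.10.

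A transcript present in a ratio of 3 to 2 has a log2 difference of 0.585. A member was called dosage-like when its shift reached 0.292, midway between no change and that value, and short of a dosage-like rise otherwise. In GSCLC_3, 34 of 49 members (69.4%) were dosage-like, where 18.6% of all tested genes reached the same shift, as did 358 of the 581 other chromosome 8 genes (61.6%). In GSCLC_1, GSCLC_2 and GSCLC_4 the count was 1, 9 and 4 members, beside 19.7%, 21.8% and 29.1% of all genes. Both GSCLC_3 libraries were above all 4 GSC libraries for 39 members, beside 13.9% of all genes, and 0 members were below all 4, beside 21.2%. In GSCLC_1, GSCLC_2 and GSCLC_4 both libraries were above all GSC libraries for 8, 7 and 6 members, beside 15.3%, 16.8% and 22.2% of all genes, and below them for 10, 12 and 9 members, beside 15.9%, 17.5% and 14%. With limma across 11788 genes, 21 members passed the threshold as higher in GSCLC_3 and 0 as lower, beside 5.17% and 9.09% of all genes. The choice of members used this contrast, so nothing is read from those counts.

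**Figure D1:**
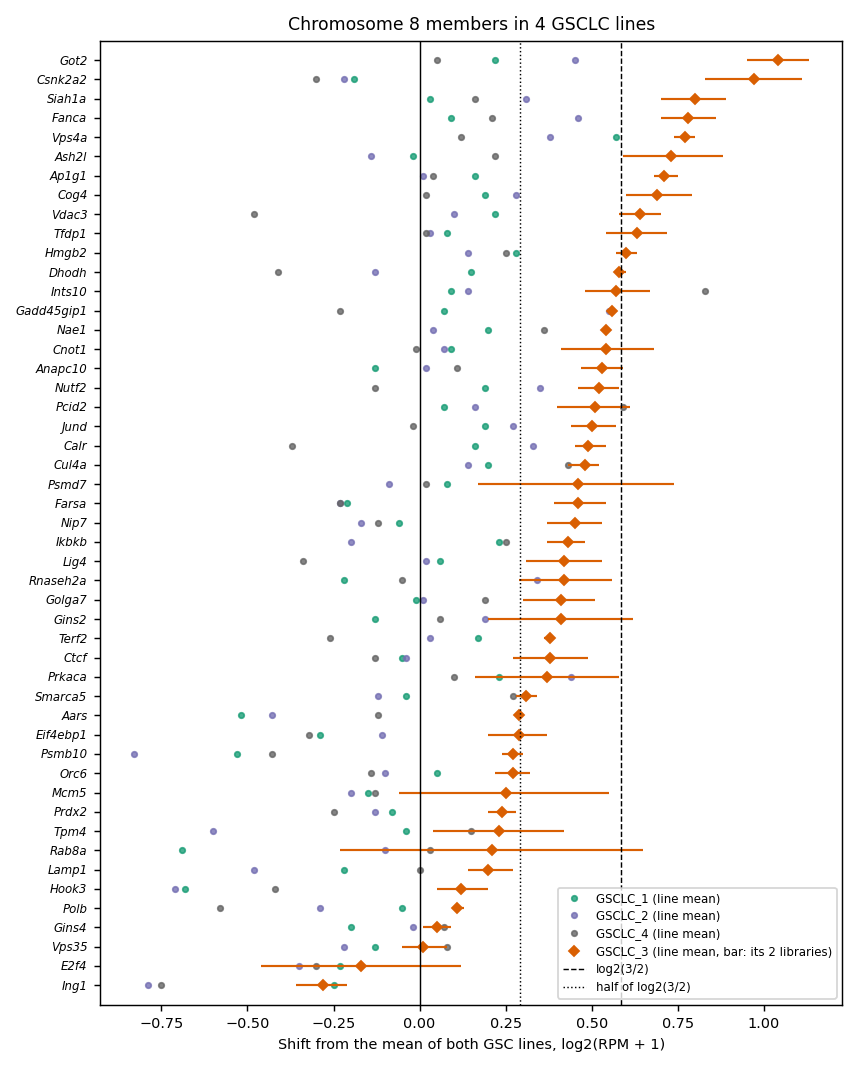
Shift of each of the 49 members from the mean of both GSC lines, in log2(RPM + 1), with members in order of their GSCLC_3 value. Diamonds are GSCLC_3 means with bars joining its 2 libraries, circles are the means of the other GSCLC lines, and the dashed and dotted lines stand at 0.585 and 0.292. GSCLC_3 runs from -0.28 for Ing1 to 1.04 for Got2, and 34 members lie at or right of the dotted line.

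The shift was not limited to one stretch of the chromosome. In 10 Mb bins, the median over all tested chromosome 8 genes lay between 0.34 and 0.54 in GSCLC_3 in the 12 bins with at least 20 genes. In these bins GSCLC_1 lay between -0.11 and 0.07, GSCLC_2 between -0.09 and 0.20 and GSCLC_4 between -0.08 and 0.18. Chromosome 8 had a median of 0.41 in GSCLC_3, and the 19 other chromosomes lay between -0.15 and -0.02. In GSCLC_2 and GSCLC_4 the highest median belonged to chromosome 6, at 0.31 and 0.38, while chromosome 8 stood at -0.03 and 0.05.

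**Figure D2:**
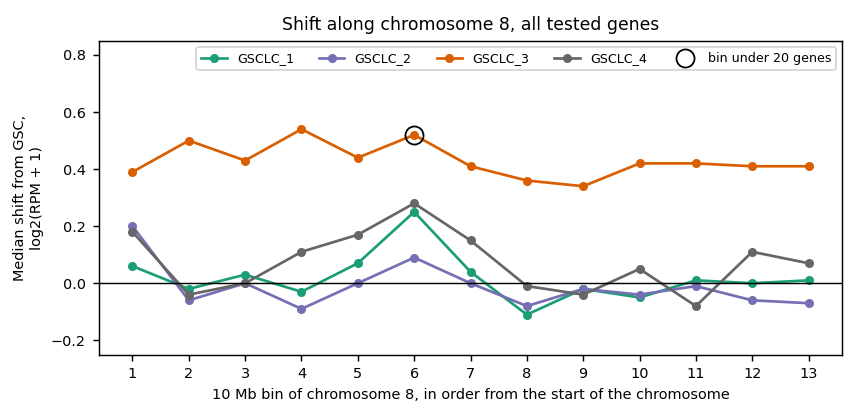
Median shift from the GSC lines, in log2(RPM + 1), of all tested chromosome 8 genes in each 10 Mb bin, in order from the start of the chromosome, with 1 line of points per GSCLC line. GSCLC_3 stays between 0.34 and 0.54 in the 12 filled bins, and the circled bin holds fewer than 20 genes.

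**Figure D3:**
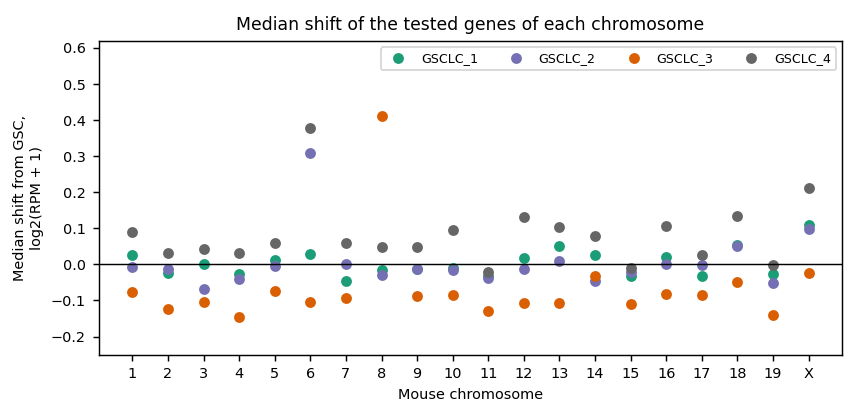
Median shift from the GSC lines, in log2(RPM + 1), of the tested genes of each chromosome in the 4 GSCLC lines. GSCLC_3 stands at 0.41 on chromosome 8 and between -0.15 and -0.02 on the 19 others, and chromosome 6 is highest in GSCLC_2 at 0.31 and in GSCLC_4 at 0.38.

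In what follows, each shift is given with its standard error (SE) from the limma fit on all 12 libraries, which rests on the spread between cultures of a line, and "the other GSCLC libraries" are the 6 of GSCLC_1, GSCLC_2 and GSCLC_4. The members were sorted into role groups with earlier results of these data known, so the counts and medians per group are a description. Beside them, 18.6% of all tested genes and 61.6% of the other chromosome 8 genes were dosage-like in GSCLC_3. Both GSCLC_3 libraries were above all GSC libraries for 13.9% and 51.3% of these genes. Among the 9 members of metabolism and signalling, 8 were dosage-like, with a median of 0.56. Got2, the mitochondrial aspartate aminotransferase of the malate-aspartate shuttle (chr8:95864133-95888401), was at 143 and 158 RPM in GSC_1, 157 and 131 RPM in GSC_2, and 284 and 323 RPM in GSCLC_3. The other GSCLC libraries ran from 140 to 211 RPM (median 171). With a ratio of 2.06 to GSC and a shift of 1.04 ± 0.13, it was the one member with a shift of at least 1, and both GSCLC_3 libraries were above the other 10. Csnk2a2, a catalytic subunit of casein kinase 2 (chr8:95446096-95488868), was at 51.8 and 56 RPM in GSC_1, 61.3 and 49.2 RPM in GSC_2, and 97.8 and 119 RPM in GSCLC_3. With the other GSCLC libraries from 43.3 to 48.4 RPM (median 46.1), all of them below every GSC library, its shift of 0.97 ± 0.16 set GSCLC_3 apart from both kinds of line. Got2 and Csnk2a2 had shifts in opposite directions in the other lines, 0.22, 0.45 and 0.05 for Got2 and -0.19, -0.22 and -0.30 for Csnk2a2 in GSCLC_1, GSCLC_2 and GSCLC_4.

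Vdac3, a voltage-dependent anion channel of the outer mitochondrial membrane, was at 361 and 365 RPM in GSC_1, 374 and 328 RPM in GSC_2, and 533 and 579 RPM in GSCLC_3. Its shift was 0.64 ± 0.15, and the other GSCLC libraries ran from 192 to 415 RPM (median 384), the lowest being 1 library of GSCLC_4. Calr, the calcium-binding chaperone calreticulin of the endoplasmic reticulum, was at 75.9 and 86.1 RPM in GSC_1, 70.4 and 72 RPM in GSC_2, and 111 and 104 RPM in GSCLC_3. The shift was 0.49 ± 0.16, but a GSCLC_2 library reached 118 RPM, above both libraries of GSCLC_3. Ikbkb, a kinase that activates NF-kappa-B, was at 12.7 and 8.18 RPM in GSC_1, 12.3 and 13.3 RPM in GSC_2, and 16.4 and 15.1 RPM in GSCLC_3. Its shift of 0.43 ± 0.29 came at a low level, and the other GSCLC libraries ran from 8.52 to 19.8 RPM (median 12.3), across the values of GSCLC_3. Dhodh, the pyrimidine synthesis enzyme dihydroorotate dehydrogenase, had a shift of 0.58 ± 0.28, and Gadd45gip1, a mitoribosome-associated protein, one of 0.56 ± 0.20. For Gadd45gip1, GSCLC_2 stood as high, at 0.55. Prkaca, the catalytic subunit of protein kinase A, had a shift of 0.37 ± 0.37 and overlapped the GSC libraries, with 9.05 and 6.47 RPM in GSCLC_3 beside 4.52 to 8.62 RPM in GSC. Prdx2, a peroxiredoxin that removes hydrogen peroxide, was the 1 member of this group short of a dosage-like rise, at 0.24 ± 0.11, although its 340 and 360 RPM were above all other libraries.

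**Figure D4:**
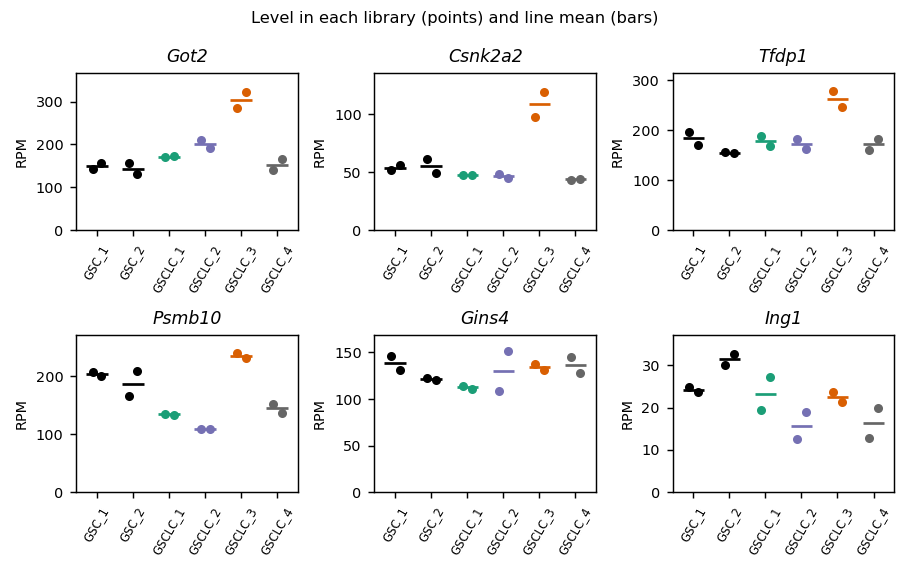
RPM of 6 members in every library, with points for single libraries and bars for line means. Got2, Csnk2a2 and Tfdp1 are higher in both GSCLC_3 libraries than in the other 10, Psmb10 is lower in the other GSCLC lines than in all 4 GSC libraries, and Gins4 and Ing1 in GSCLC_3 overlap the GSC or the other GSCLC libraries.

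The 6 members of protein turnover included 5 that were dosage-like, with a median of 0.50. In all 6 both GSCLC_3 libraries were above every GSC library, beside 13.9% of all genes. Siah1a, a RING ubiquitin ligase (chr8:86720454-86746006), was at 17.9 and 12.3 RPM in GSC_1, 12.8 and 10.2 RPM in GSC_2, and 21.8 and 25.1 RPM in GSCLC_3. Its shift was 0.80 ± 0.24, and the other GSCLC libraries ran from 12.3 to 16.4 RPM (median 14.9), with no overlap with GSCLC_3. Nae1, a subunit of the enzyme that activates NEDD8, was at 213 and 204 RPM in GSC_1, 217 and 208 RPM in GSC_2, and 304 and 307 RPM in GSCLC_3. The shift was 0.54 ± 0.12, its GSCLC_3 libraries were nearly equal, and the other GSCLC libraries ran from 216 to 295 RPM (median 235), all lower. Cul4a, a cullin scaffold of ubiquitin ligases that NEDD8 activates, was at 98.1 and 88.1 RPM in GSC_1, 108 and 97.2 RPM in GSC_2, and 132 and 141 RPM in GSCLC_3. Its shift was 0.48 ± 0.14, and 1 GSCLC_4 library at 147 RPM exceeded both GSCLC_3 libraries.

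Anapc10, a subunit of the anaphase-promoting complex, was at 65.5 and 65.9 RPM in GSC_1, 67.4 and 71.4 RPM in GSC_2, and 93.9 and 102 RPM in GSCLC_3. The shift was 0.53 ± 0.15, and both libraries were above the other GSCLC libraries, which ran from 55.4 to 77.5 RPM (median 68.5). Psmd7, a lid subunit of the proteasome, was at 161 and 140 RPM in GSC_1, 167 and 174 RPM in GSC_2, and 180 and 267 RPM in GSCLC_3. Its shift of 0.46 ± 0.14 combines libraries at 0.17 and 0.74, both above all other libraries. Psmb10, a catalytic subunit of the immunoproteasome, was at 208 and 201 RPM in GSC_1, 166 and 209 RPM in GSC_2, and 240 and 231 RPM in GSCLC_3. It was short of a dosage-like rise against GSC at 0.27 ± 0.13, but the other GSCLC libraries were all lower than the GSC libraries at from 109 to 153 RPM (median 135), and against those lines GSCLC_3 stood 0.86 higher.

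For 7 members of RNA metabolism and translation the median was 0.46, and 5 were dosage-like. All 7 had both GSCLC_3 libraries above every GSC library, beside 13.9% of all genes. Cnot1, the scaffold of the CCR4-NOT deadenylase, was at 358 and 272 RPM in GSC_1, 309 and 312 RPM in GSC_2, and 498 and 414 RPM in GSCLC_3. Its shift was 0.54 ± 0.13, and the other GSCLC libraries ran from 295 to 349 RPM (median 320), below GSCLC_3. Ints10, a subunit of the Integrator complex that processes small nuclear RNAs, was at 83.1 and 55.3 RPM in GSC_1, 60.6 and 72.7 RPM in GSC_2, and 107 and 94.1 RPM in GSCLC_3. The shift was 0.57 ± 0.17, yet GSCLC_4 was higher still, at 134 and 107 RPM. Pcid2, which acts in mRNA export, had a shift of 0.51 ± 0.21 and was also highest in GSCLC_4, where its shift was 0.59. Farsa, a subunit of phenylalanyl-tRNA synthetase, at 0.46 ± 0.15, and Nip7, a ribosome biogenesis factor, at 0.45 ± 0.12, were higher in GSCLC_3 than in every other library. Aars, the alanyl-tRNA synthetase, at 0.29 ± 0.15, and Eif4ebp1, a repressor of cap-dependent translation, at 0.29 ± 0.14, lay just short of the threshold, at 0.288 and 0.287. The members nearest above it were Smarca5 at 0.308 and Prkaca at 0.371. Over the last 300 bases of each protein-coding transcript of Aars, 266 of 532 pooled 35-base words (50%) are also found in Exosc6. Reads of the 2 genes may therefore not be told apart.

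The 8 members of transcription and chromatin held both the members with a shift below 0 and 6 that were dosage-like, with a median of 0.44. Ash2l, a core subunit of the COMPASS histone methyltransferases (chr8:25816000-25847694), was at 227 and 172 RPM in GSC_1, 194 and 205 RPM in GSC_2, and 366 and 299 RPM in GSCLC_3. Its shift was 0.73 ± 0.14, and the other GSCLC libraries ran from 163 to 235 RPM (median 199), all below GSCLC_3. Tfdp1, the DP partner with which E2F factors bind DNA and whose promoter holds 1 octamer in the sequence above, was at 197 and 171 RPM in GSC_1, 156 and 154 RPM in GSC_2, and 279 and 246 RPM in GSCLC_3. The shift was 0.63 ± 0.13, and the other GSCLC libraries ran from 160 to 189 RPM (median 176), within the GSC range. Of the 35-base words in the last 300 bases of Tfdp1, 28.8% are also found in Gm7390. Hmgb2, a DNA-bending high mobility group protein, was at 245 and 237 RPM in GSC_1, 186 and 271 RPM in GSC_2, and 345 and 361 RPM in GSCLC_3. Its shift of 0.60 ± 0.13 placed both libraries above the other 10, although 49.6% of the 35-base words in its last 300 bases occur in other genes.

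Smarca5, the ATPase of the ISWI chromatin remodellers, was at 372 and 302 RPM in GSC_1, 298 and 337 RPM in GSC_2, and 412 and 395 RPM in GSCLC_3. With a shift of 0.31 ± 0.12 it was barely dosage-like, and 1 of the other GSCLC libraries, which ran from 297 to 420 RPM (median 318), exceeded it. Ctcf, the insulator protein, at 0.38 ± 0.17, and Jund, a subunit of the AP-1 transcription factor, at 0.50 ± 0.26, were above all GSC libraries. E2f4, a mostly repressive E2F factor (chr8:105297663-105305370), was at 74 and 58.6 RPM in GSC_1, 63 and 64.3 RPM in GSC_2, and 70.7 and 46.6 RPM in GSCLC_3. The shift was -0.17 ± 0.18, one GSCLC_3 library was above and the other inside the span of the other GSCLC libraries, from 44.9 to 56.9 RPM (median 55.1), and GSC_1 was the highest of the 6 lines. Ing1, a histone-binding subunit of a deacetylase complex (chr8:11555762-11563251), was at 24.8 and 23.7 RPM in GSC_1, 30 and 32.7 RPM in GSC_2, and 23.7 and 21.3 RPM in GSCLC_3. Its shift of -0.28 ± 0.24 was the lowest of all members, but it was lower in GSCLC_2 and GSCLC_4, at -0.79 and -0.75, and the other GSCLC libraries ran from 12.5 to 27.2 RPM (median 19.2).

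DNA replication and repair had 9 members, of which 5 were dosage-like, with a median of 0.38. Fanca, a subunit of the Fanconi anaemia core complex that responds to DNA crosslinks (chr8:123266294-123318651), was at 57.7 and 44.8 RPM in GSC_1, 40.4 and 49.2 RPM in GSC_2, and 87.4 and 78.2 RPM in GSCLC_3. Its shift was 0.78 ± 0.19, and the other GSCLC libraries, which ran from 39.4 to 66.3 RPM (median 63.5), reached above the GSC range too, with a shift of 0.46 in GSCLC_2. Lig4, the ligase of non-homologous end joining, was at 16.6 and 18.7 RPM in GSC_1, 20.4 and 16.1 RPM in GSC_2, and 26.3 and 22.4 RPM in GSCLC_3. The shift was 0.42 ± 0.23, and both libraries were above the other 10. Terf2, a telomere-binding protein of shelterin, was at 45.3 and 40.5 RPM in GSC_1, 54.6 and 34.2 RPM in GSC_2, and 55.7 and 56.9 RPM in GSCLC_3. Its shift was 0.38 ± 0.21, while 1 GSCLC_1 library reached 62.2 RPM and the other GSCLC libraries ran from 35.1 to 62.2 RPM (median 38.9). Rnaseh2a, the catalytic subunit of RNase H2, was at 72 and 101 RPM in GSC_1, 108 and 68.9 RPM in GSC_2, and 105 and 126 RPM in GSCLC_3. Its shift of 0.42 ± 0.18 was dosage-like although 1 GSC library, at 108 RPM, was above the lower GSCLC_3 library.

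The replication factors of the group were less uniform. Mcm5, a subunit of the MCM replicative helicase whose promoter above holds the overlapping octamers, was at 438 and 340 RPM in GSC_1, 330 and 357 RPM in GSC_2, and 535 and 350 RPM in GSCLC_3. Its shift of 0.25 ± 0.15 averages a library 0.55 above GSC and one at -0.06, within the GSC range. The MCM subunits on other chromosomes were also lower in that second library than in the first. Gins2, a subunit of the GINS complex of the same helicase, was at 41.4 and 44.8 RPM in GSC_1, 44.8 and 44.9 RPM in GSC_2, and 68.1 and 50.7 RPM in GSCLC_3. The shift was 0.41 ± 0.17, with libraries at 0.62 and 0.20, and the other GSCLC libraries ran from 39.1 to 54.9 RPM (median 44.1). Gins4, of the same complex, was at 146 and 131 RPM in GSC_1, 123 and 120 RPM in GSC_2, and 138 and 131 RPM in GSCLC_3. Its shift was 0.05 ± 0.14, and GSC_1 was the highest line, so that Gins4 overlapped both GSC and the other GSCLC libraries, which ran from 109 to 151 RPM (median 121). Orc6, the smallest subunit of the origin recognition complex, was at 140 and 134 RPM in GSC_1, 103 and 112 RPM in GSC_2, and 151 and 141 RPM in GSCLC_3. At 0.27 ± 0.13 it was short, yet both libraries were above the other 10. Polb, the DNA polymerase of base excision repair, was at 99.7 and 105 RPM in GSC_1, 103 and 99 RPM in GSC_2, and 111 and 109 RPM in GSCLC_3. It had a shift of 0.11 ± 0.17, with both libraries slightly above all GSC libraries and the other GSCLC libraries lower or level with GSC, from 53.6 to 99.9 RPM (median 89.7).

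In the largest group, 10 members of trafficking and the cytoskeleton, 5 were dosage-like and 5 short, with a median of 0.32. Vps4a, an ATPase that disassembles ESCRT complexes (chr8:107031269-107045760), was at 21.2 and 32.5 RPM in GSC_1, 24.6 and 25.8 RPM in GSC_2, and 45.5 and 43.7 RPM in GSCLC_3. Its shift was 0.77 ± 0.19, and the other GSCLC libraries, which ran from 28 to 39.1 RPM (median 33.9), reached above the GSC range, with a shift of 0.57 in GSCLC_1, the 1 dosage-like member of that line. Ap1g1, the gamma subunit of the AP-1 clathrin adaptor, was at 169 and 144 RPM in GSC_1, 171 and 166 RPM in GSC_2, and 260 and 273 RPM in GSCLC_3. The shift was 0.71 ± 0.13, and the other GSCLC libraries ran from 148 to 192 RPM (median 168). Cog4, of the Golgi tethering complex COG, was at 81.5 and 92.6 RPM in GSC_1, 91.6 and 75.3 RPM in GSC_2, and 147 and 129 RPM in GSCLC_3. Its shift was 0.69 ± 0.16, and for Cog4, Vps4a and Ap1g1 both GSCLC_3 libraries were above the other 10. Golga7, a cofactor of a Ras palmitoyltransferase, had a shift of 0.41 ± 0.12. Nutf2, which carries Ran into the nucleus, had one of 0.52 ± 0.24, but 63.8% of the 35-base words at its 3′ end also occur in its pseudogenes, and its level is uncertain.

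Vps35, the cargo-binding core of retromer (chr8:85260385-85299517), was at 95.8 and 79.5 RPM in GSC_1, 72.1 and 99.3 RPM in GSC_2, and 90.7 and 82.8 RPM in GSCLC_3. With a shift of 0.01 ± 0.15 it lay inside the GSC range, and GSCLC_4 was the highest of the lines. Hook3, an adaptor of dynein, was at 54.8 and 49.1 RPM in GSC_1, 54.9 and 58.2 RPM in GSC_2, and 56 and 62.3 RPM in GSCLC_3. Its shift was 0.12 ± 0.22, and the other GSCLC libraries, from 22.7 to 47.1 RPM (median 38.2), were all below the GSC libraries, so that GSCLC_3 stood 0.72 above those lines. Lamp1, a lysosomal membrane glycoprotein, was at 790 and 641 RPM in GSC_1, 735 and 748 RPM in GSC_2, and 801 and 875 RPM in GSCLC_3. The shift was 0.20 ± 0.11, with both libraries above the other 10, which for GSCLC ran from 517 to 731 RPM (median 622). Rab8a, a small GTPase of secretory transport, was at 3.59 and 6.46 RPM in GSC_1, 4.92 and 6.38 RPM in GSC_2, and 8.76 and 4.31 RPM in GSCLC_3. At this low level its shift of 0.21 ± 0.37 averaged libraries at 0.65 and -0.23. Tpm4, an actin-binding tropomyosin, had a shift of 0.23 ± 0.21 and overlapped GSC.

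The 15 members short of a dosage-like rise against GSC were thus Ing1, E2f4, Vps35, Gins4, Polb, Hook3, Lamp1, Rab8a, Tpm4, Prdx2, Mcm5, Orc6, Psmb10, Eif4ebp1 and Aars. For 7 of them, namely Aars, Eif4ebp1, Psmb10, Orc6, Prdx2, Lamp1 and Polb, both GSCLC_3 libraries were still above every GSC library. Over all tested genes the share with both above was 13.9%. Genes off chromosome 8 had a median of -0.10 in GSCLC_3. With centring on those genes, Aars, Eif4ebp1, Psmb10, Orc6, Mcm5, Prdx2, Tpm4, Rab8a and Lamp1 became dosage-like, at 0.33 to 0.42. Hook3, Polb, Gins4, Vps35, E2f4 and Ing1 stayed short with centring. Set against the mean of the other 3 GSCLC lines in place of GSC, 41 of 49 members reached 0.292, beside 14.1% of all genes. Of the 15 short members, 12 reached it against those lines, and Gins4 at 0.10, Vps35 at 0.10 and E2f4 at 0.12 were short under both references. Conversely 5 dosage-like members missed it against the GSCLC lines, Ints10 at 0.22, Pcid2 at 0.23, Cul4a at 0.22, Prkaca at 0.11 and Smarca5 at 0.27. GSCLC_3 was the highest of the 6 lines for 42 members, a count for which no share over all genes was computed. The 7 exceptions were Ints10, Pcid2 and Vps35 with GSCLC_4 highest, Prkaca with GSCLC_2, Gins4 and E2f4 with GSC_1, and Ing1 with GSC_2.

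The measured shifts of neighbouring members were not always alike. Of 15 adjacent pairs within 100 kb, 5 differed by 0.292 or more. Vdac3 and Polb, 34.3 kb apart, differed by 0.52, and Polb and Ikbkb, 5.74 kb apart, by 0.32. Gins4 and Golga7, 3.66 kb apart, differed by 0.36, Cnot1 and Got2 at 56 kb by 0.50 and Vps4a and Nip7 at 11.1 kb by 0.32. These differences were not tested, and no share over all neighbouring genes was computed. The SEs of these shifts ran from 0.12 for Golga7 and Nip7 to 0.29 for Ikbkb. For Polb and Ikbkb, with SEs of 0.17 and 0.29, and Vps4a and Nip7, with 0.19 and 0.12, a difference of 0.32 may be noise. Vps35 and Orc6, which lie 0.115 kb apart, differed by 0.26, and the neighbours Pcid2 and Cul4a by 0.03. Strand use in counting is not stated in any label, and reads of overlapping ends may not have been told apart.

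Many members encode subunits whose partners lie on other chromosomes, and these partners did not share the shift. Of 113 tested partner genes off chromosome 8, in the complexes and families of the plot of subunits, 8 reached 0.292 in GSCLC_3 and the median was -0.06, close to the -0.10 of all genes off the chromosome. In the same limma fit 2 partners passed as higher and 4 as lower, which is 1.77% and 3.54% of them, beside 5.17% and 9.09% of all genes. The 27 members in these lists and 8 further chromosome 8 genes of the same complexes together had a median of 0.46, and 27 of those 35 were dosage-like. The 8 further genes alone, among them Cdc16 of the anaphase-promoting complex at 0.65 and Ap1m1 of the AP-1 adaptor at 0.62, had a median of 0.38.

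**Figure D5:**
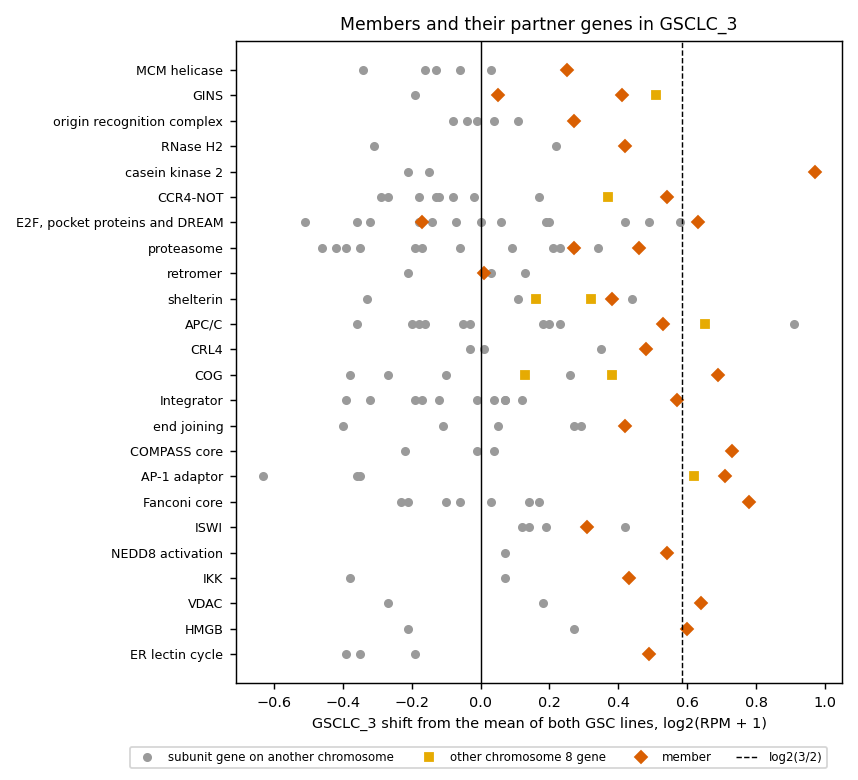
Shift of GSCLC_3 from the GSC lines, in log2(RPM + 1), for the subunits of each complex or family, with diamonds for members, squares for other chromosome 8 genes and circles for genes of other chromosomes. The dashed line stands at 0.585. Circles have a median of -0.06 and the chromosome 8 genes a median of 0.46.

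Complex by complex, Csnk2a2 at 0.97 stood beside its alternative catalytic subunit Csnk2a1 at -0.15 and the regulatory Csnk2b at -0.21. Mcm5 at 0.25 stood beside 5 other MCM subunits at -0.34 to 0.03. These 5 were all lower in replicate 2 of GSCLC_3 than in its replicate 1, such as Mcm2 at 497 and 629 RPM and Mcm3 at 217 and 321 RPM. The AP-1 subunit Ap1g1 at 0.71 stood beside Ap1b1, its beta subunit, which was lower in GSCLC_3 by -0.63 ± 0.14 (SE, limma adjusted p = 0.00617), at 86.8 and 75.5 RPM against 115 to 133 RPM in GSC. Ap1b1 was at -0.57 in GSCLC_1, -0.65 in GSCLC_2 and -0.65 in GSCLC_4. Anapc7, of the complex that holds Anapc10, was higher by 0.91 ± 0.23 (limma adjusted p = 0.0107) and was at 0.90 to 1.04 in the other GSCLC lines. Nae1 at 0.54 stood beside the other subunit of its enzyme, Uba3, at 0.07. Uba3 lies on chromosome 6 and was at 0.90 in GSCLC_2 and 1.37 in GSCLC_4, the lines with the highest chromosome 6 medians.

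Around Tfdp1 and E2f4, of 13 tested partners among the E2F, pocket protein and DREAM genes, 1 was higher and 1 was lower. E2f1, an activating E2F, was at 85.1 and 72.5 RPM in GSCLC_3 and 108 to 116 RPM in GSC. The difference was -0.51 ± 0.14 (limma adjusted p = 0.0186), and E2f1 was at 0.04, 0.41 and 0.02 in GSCLC_1, GSCLC_2 and GSCLC_4. Tfdp2, the paralogue of Tfdp1, was at 81.7 and 81.1 RPM beside 51 to 73.7 RPM, a difference of 0.49 ± 0.16 (limma adjusted p = 0.0444), and stood at 0.71 in GSCLC_4. Beside Psmb10 and Psmd7, 2 of 12 tested proteasome genes were lower and 0 were higher. The 2 were Psmd8, by -0.46 ± 0.14 (limma adjusted p = 0.0357), and Psmd11, by -0.42 ± 0.12 (limma adjusted p = 0.0255). In GSCLC_1, GSCLC_2 and GSCLC_4, Psmd8 was at -0.30, -0.07 and -0.03 and Psmd11 at -0.29, -0.20 and -0.19. A list of 16 S phase genes off chromosome 8 had a median of -0.21, and 1 passed as higher, Dut, the dUTP hydrolase, by 0.50 ± 0.12 (limma adjusted p = 0.00669), which was at 0.43, 0.72 and 0.32 in GSCLC_1, GSCLC_2 and GSCLC_4. All of these genes but Tyms, Pola1, Chaf1b and Gmnn were lower in replicate 2 of GSCLC_3 than in its replicate 1. Cdc45, for example, was at 140 and 235 RPM, so the median leans on replicate 2. Of 18 alternative settings, the calls of Ap1b1, Anapc7 and Dut passed in 17, that of E2f1 in 15, Psmd11 in 13, Psmd8 in 11 and Tfdp2 in 8. Each of these 7 calls ended without one of the GSCLC_3 libraries, replicate 1 for Dut, replicate 2 for Ap1b1, Anapc7 and E2f1, and either for Psmd8, Psmd11 and Tfdp2, and centring on genes off chromosome 8 put limma's adjusted p at 0.0654 for E2f1, 0.141 for Psmd8 and 0.115 for Psmd11.

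Lines of the same kind were compared with limma in 3 contrasts. The contrasts of GSCLC_4 with GSCLC_1 and of GSCLC_2 with the condition 1 lines are differences between the shifts from GSC described above. Their adjusted p-values are therefore not an independent test of the members. GSC_2 and GSC_1 differed by a median of -0.04 over the members, 41 of which differed by less than 0.292. With limma 0 of 49 members passed at an adjusted p of 0.05 (0.0509% of all genes did). At an unadjusted p under 0.05 stood 1 member, beside 794 of all 11788 genes. Between the condition 1 lines GSCLC_4 and GSCLC_1, 1 member passed as higher and 1 as lower, beside 1.56% and 0.891% of all genes. Vdac3 was at 192 and 338 RPM in GSCLC_4 and 415 and 414 RPM in GSCLC_1, lower by -0.70 ± 0.18 (limma adjusted p = 0.0452). Ints10 was at 134 and 107 RPM in GSCLC_4 and 69.6 and 73.3 RPM in GSCLC_1, higher by 0.74 ± 0.19 (limma adjusted p = 0.0489). Neither pair of libraries overlapped, but both calls were close to the threshold: Vdac3 passed in 7 of 18 alternative settings, with limma adjusted p from 0.000178 to 0.422, and Ints10 in 5 of 18, with limma adjusted p from 0.0281 to 0.281. The Vdac3 difference was -0.29 without replicate 1 of GSCLC_4 and -1.10 without its replicate 2, and either call ended without either library of GSCLC_1, GSCLC_2 or GSC_2. Between GSCLC_2 and the condition 1 lines, limma called 0 of 49 members (0.424% of all genes). At an unadjusted p under 0.05 stood 7 members, beside 1452 of all 11788 genes, and the members' smallest limma adjusted p was 0.142.

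In the other lines the members' shifts from GSC had medians near 0 but spread to both sides, from -0.69 to 0.57 in GSCLC_1, -0.83 to 0.55 in GSCLC_2 and -0.75 to 0.83 in GSCLC_4. In GSCLC_1 limma placed 0 members higher and 2 lower, Psmb10 and Aars, beside 3.31% and 3.63% of all genes. GSCLC_2 had 1 higher, Got2, and 4 lower, Psmb10, Ing1, Hook3 and Lamp1, beside 5.47% and 6.26%. GSCLC_4 had 3 higher, Ints10, Cul4a and Nae1, and 4 lower, Ing1, Polb, Vdac3 and Psmb10, beside 9.65% and 6.4%. Centring on genes off chromosome 8 and quantile normalization each left 1 of the 3 higher calls, Ints10, and 4 lower. Psmb10 was thus on the lower side in all 3 lines, at -0.53, -0.83 and -0.43. Over line means, with the line as the unit, limma called 0 members between the 4 GSCLC and the 2 GSC lines (2.6% of all genes). At an unadjusted p under 0.05 stood 4 of 49 members, beside 1966 of all 11788 genes. Between the conditions limma also called 0 members, and 0% of all genes passed. There 8 of 49 members had an unadjusted p under 0.05, beside 552 of all 11788 genes. The condition 2 mean holds GSCLC_3, and the members' median difference between conditions of 0.25 contains its shift.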

How the data were processed

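The authors deposited 1 table of RPM for 26219 genes in 12 libraries, with reads scaled to a common total per library. The submitters' processing notes name TopHat 1.4.1, cutadapt 1.3 and Cufflinks 2.2.0, with the build mm10 (GRCm38), and give no roles. These RPM are not counts, so no count model was used, and since the amplified reads carry no molecular identifiers, depth speaks for counting error only.

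Members, role groups, partner lists and marker lists were chosen with earlier results of these data known. Chromosomes came from RefSeq on GRCm38.p6, which placed 11411 of the 11788 tested genes (5 RPM or more in 2 or more libraries). Values were taken as log2(RPM + 1), which understates the change of low genes. limma 3.58.1 in R 4.3.3, with a mean-variance trend, was fitted to all 12 libraries with the line as the factor, and to line means for the group comparisons. Two-sided p-values were Benjamini-Hochberg adjusted across all 11788 genes, at a threshold of 0.05. In fits on libraries they rest on the spread between cultures of a line. The script was tested on simulated data. Shared 3′ ends were found as 35-base words of the last 300 bases, pooled over the protein-coding transcripts of a gene. A share can thus come from the end of 1 transcript and not from another. Besides Nutf2, Aars and Hmgb2, the shares were 28.8% for Tfdp1, 15.7% for Prdx2, 14% for Ash2l, 8.19% for Mcm5, 4.9% for Rnaseh2a and 0.87% for Cnot1.

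Values in every library are given for the 8 members with the largest and the 8 with the smallest GSCLC_3 shift, for members of the listed complexes and for members called in a contrast between lines of the same kind. Partner genes are named where called, or as the other subunits of a complex. The alternatives were pseudocounts of 0.5 and 5, no filter, centring on genes off chromosome 8, quantile normalization, a replicate block and leaving out each library.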

Additional observations from a re-analysis of the deposited data

Results flagged for a closer look

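Within groups of 4 libraries, 7 of 147 sets of member values held 1 library far from the other 3, by Dixon's gap test. This test flags about 1 in 20 sets of independent values by chance. Each group here holds 2 libraries of each of 2 lines, so that rate need not apply. In GSC, Gins2 was at 41.4 RPM in GSC_1 replicate 1 and 44.8 to 44.9 RPM in the others, a gap that is small in size. Prkaca was at 8.62 RPM in GSC_2 replicate 1 and 4.52 to 5.22 RPM in the others. Among the condition 1 libraries, Terf2 was at 62.2 RPM in GSCLC_1 replicate 1 and 35.1 to 37.8 RPM elsewhere. GSCLC_4 replicate 1 was high for Psmb10, at 153 RPM beside 134 to 137 RPM, and for Tpm4, at 39.6 RPM beside 28.4 to 29.4 RPM. GSCLC_4 replicate 2 was low for Nutf2, at 19.8 RPM beside 29.6 to 31.2 RPM. Among the condition 2 libraries, Mcm5 was at 535 RPM in GSCLC_3 replicate 1 and 314 to 350 RPM in the others, which include the other GSCLC_3 library. Between the condition 1 lines, limma called Vdac3, with a log2 difference of -0.70 of GSCLC_4 from GSCLC_1, and Ints10, with 0.74. This contrast is not an independent test of the members. The call of Vdac3 passed in 7 of 18 alternative settings and that of Ints10 in 5 of 18. Without replicate 1 of GSCLC_4 the Vdac3 difference was -0.29.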

How the results depend on the processing

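Of 882 GSCLC_3 shifts over the members and the alternatives, 768 moved by less than the replicate spread and 114 moved more. Many of the 768 could not do otherwise. No filter, or leaving out a library of GSCLC_1, GSCLC_2 or GSCLC_4, does not alter a GSCLC_3 shift from GSC. Leaving out 1 GSCLC_3 library always moves it by less than the spread used. Signs turned for Mcm5 (-0.06 to 0.55), Rab8a (-0.23 to 0.65), Vps35 (-0.10 to 0.14) and E2f4 (-0.46 to 0.12), all short members, and for Ing1 (0.32) with the other GSCLC lines as reference. Against the threshold of 0.292, 32 of 49 members stayed on one side in all 17 alternatives, 26 as dosage-like and 6 as short (Hook3, Polb, Gins4, Vps35, E2f4 and Ing1), and 17 changed side in some. The 17 alternatives include those that cannot alter a GSCLC_3 shift. Centring on genes off chromosome 8, whose median in GSCLC_3 was -0.10, gave 43 dosage-like members and median shifts of 0.58 in GSCLC_3, 0.06 in GSCLC_1 and 0.03 in GSCLC_2. The median of the other chromosome 8 genes was 0.53 with centring, 0.32 with no filter, 0.34 with a pseudocount of 5 and 0.47 after quantile normalization, which put the GSCLC_2 median at -0.01. Centring and quantile normalization each left 1 higher and 4 lower members called in GSCLC_4 against GSC. Between GSCLC_4 and GSCLC_1, limma called 1 member with centring, 0 with no filter, 1 with a pseudocount of 0.5 and 0 after quantile normalization. With no filter, limma called 1 member in GSCLC_1, 2 in GSCLC_2 and 2 in GSCLC_4 against GSC, and 14 in GSCLC_3, where more genes were tested. Leaving out 1 library at a time gave median shifts of -0.04 to 0.04 in GSCLC_1, -0.03 to 0.02 in GSCLC_2, 0.40 to 0.53 in GSCLC_3 and -0.08 to 0.05 in GSCLC_4, 0.38 to 0.41 for the other chromosome 8 genes, and 32 to 37 dosage-like members. The members called by limma then numbered 0 to 3 in GSCLC_1, 2 to 7 in GSCLC_2, 9 to 23 in GSCLC_3 (9 without its replicate 1 and 11 without its replicate 2) and 0 to 9 in GSCLC_4 (0 without its replicate 1). They numbered 0 to 4 between GSCLC_4 and GSCLC_1, 0 to 1 between GSCLC_2 and the condition 1 lines, and 0 between the GSC lines and in both comparisons of line means. Where a line kept 1 library, it was assumed to vary like the others. Replicate numbers did not pair the libraries, as the deviations of same-numbered libraries correlated at -0.122 to 0.11 over 15 pairs of lines. A replicate block gave 22 called members in GSCLC_3, 21 of them among those reported, with 2, 6 and 7 in GSCLC_1, GSCLC_2 and GSCLC_4, 2 between GSCLC_4 and GSCLC_1 and 0 in the other comparisons. Depth limits members such as Rab8a and Prkaca, since 5 RPM is 15 to 23 reads.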
